A study of Mus musculus with 21 samples.

Results

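The nuclear-encoded subunits of respiratory complex I were followed in mouse quadriceps muscle after an exhaustive treadmill bout. The genes were chosen by their symbol, Ndufa, Ndufb, Ndufc, Ndufs or Ndufv with a number, or Ndufab1, with assembly factors and pseudogenes left out. Of 53738 gene symbols, 42 fitted this naming, 3 of them (Ndufb4c, Ndufa11b and Ndufs6b) were annotated as transcribed processed pseudogenes, and 39 protein-coding genes remained. RNA was measured in bulk tissue as TPM, a relative transcript abundance that is corrected for transcript length. Male C57/Bl6 wild-type mice were 22 to 26 weeks old and fell into 7 groups of 3. Sedentary mice did no exercise. Untrained mice ran to exhaustion without previous training, and trained mice did so after 12 weeks with a running wheel. Both kinds were killed 0 h, 6 h or 72 h after the bout. No trained muscle without the acute bout was part of the RNA measurement, so training and the bout were separated only by comparing trained with untrained muscle at the same time.

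Complex I, NADH:ubiquinone oxidoreductase, takes electrons from NADH, passes them along iron-sulphur clusters to ubiquinone and pumps protons across the inner mitochondrial membrane. Its matrix arm consists of the N module, which binds NADH, and the Q module, which reduces ubiquinone. The membrane arm is divided into a proximal and a distal part and is built around core subunits that the mitochondrial genome encodes. The core subunits of the matrix arm, such as Ndufv1, Ndufv2, Ndufs1, Ndufs3, Ndufs7 and Ndufs8, and all accessory subunits are nuclear genes, so that the complex needs RNA from both genomes. Ndufa4 carries a complex I name but is a subunit of complex IV.

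Replicate 1 of the untrained and of the trained 0 h group carried the same value for every gene. The 21 columns therefore were 20 distinct libraries, with 1 library common to both 0 h groups. That shared library stood apart. Its nuclear complex I genes summed to 9269 TPM, against 7035 to 8059 TPM in the other 19 libraries, and 33 of the 38 expressed members had their highest value there. Values at 0 h that rest on it are therefore also given without it. TPM values carry no read depth, so precision rested on the spread between the 3 libraries of a group. Nothing in the labels ties a library to more than 1 mouse, and the p-values measure the spread between these libraries.

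Of the 39 genes, 38 were expressed and tested. Ndufb11b, a copy of the membrane arm subunit Ndufb11, was listed at 0 in every library. Mean levels of the other 38 spanned 7.38-fold, from 76.1 TPM for Ndufb3 to 561 TPM for Ndufa4, with a median of 182 TPM. After Ndufa4, the highest means belonged to Ndufb8 (476 TPM), Ndufa3 (464 TPM), Ndufb9 (368 TPM) and Ndufa5 (293 TPM). All of these are accessory subunits. The lowest after Ndufb3 were Ndufs8 (85.7 TPM), Ndufc2 (96.6 TPM), Ndufb6 (110.4 TPM) and Ndufs1 (111 TPM). Ndufs1, the largest iron-sulphur protein of the N module, and Ndufs8, which carries clusters close to the ubiquinone site, are core subunits. Further core subunits reached 142 TPM (Ndufv1, the NADH-binding subunit), 181 TPM (Ndufs7), 221 TPM (Ndufv2) and 246 TPM (Ndufs3). The spread among subunits was thus much larger than that of a subunit among libraries, as the plot of levels by module shows.

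**Figure D1:**
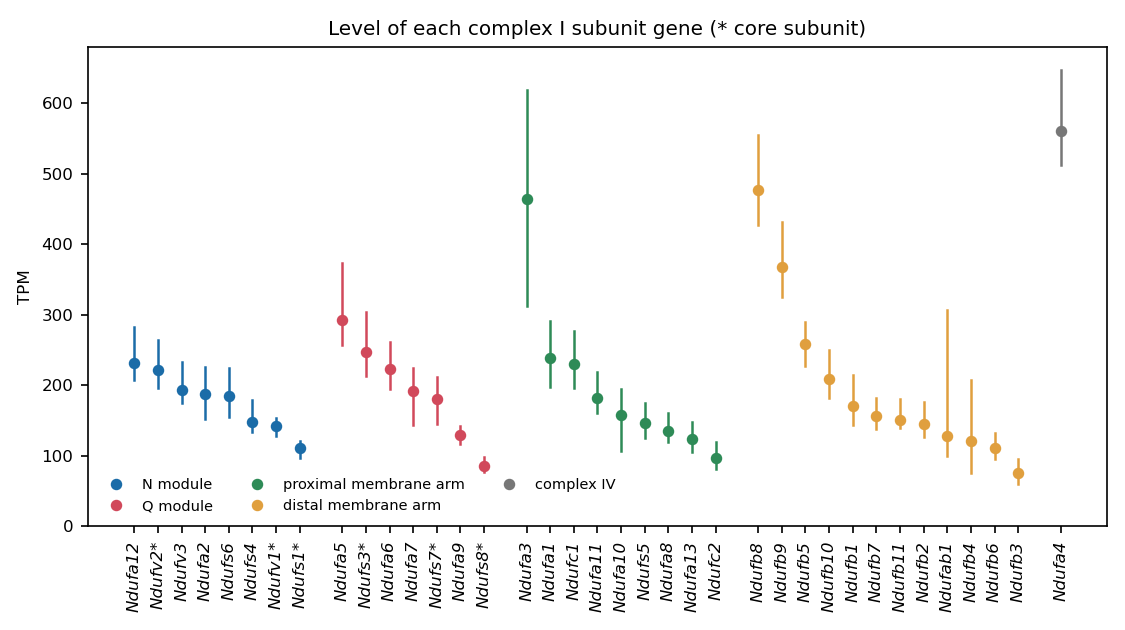
Mean level of 37 of the 38 expressed nuclear complex I genes in TPM (vertical axis), grouped by module of the complex along the horizontal axis. Points are means over the 21 columns, lines run from the lowest to the highest library, and stars mark core subunits. Ndufa4, Ndufb8, Ndufa3 and Ndufb9 stand above the rest, and Ndufab1, Ndufb4 and Ndufa3 have long lines.

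Most members were measured tightly. The SD within groups, pooled over the 7 groups on the log2(TPM + 0.5) scale, was below 0.15 for 33 of the 38 genes, with a median of 0.096 and a smallest value of 0.047 for Ndufs1. Ndufb4 (0.54) and Ndufab1 (0.38), both in the distal membrane arm, were the exceptions with the largest spread. Ndufab1 is the mitochondrial acyl carrier protein, which is also found outside complex I. They were also the members with the largest range of group means, 0.83 and 0.70 on the log2 scale, followed by Ndufa3 (0.45). The smallest ranges were those of Ndufs8 (0.13), Ndufb5 (0.18) and Ndufa4 (0.18).

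For Ndufb4 and Ndufab1 the sequence of a pseudogene bears on the values. Ndufb4 lies on chromosome 16 (GRCm39, 37467242 to 37474815, minus strand). The single-exon pseudogene Ndufb4c lies on chromosome 15 (73681356 to 73681745, minus strand), and its 390 bases are identical to the 390-base coding sequence of Ndufb4 at 390 of 390 positions. A read from the coding part therefore could belong to either locus. The stretch below, from the start codon onwards, is shown because it stands for both.

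Ndufb4 and Ndufb4c, coding sequence from the first base: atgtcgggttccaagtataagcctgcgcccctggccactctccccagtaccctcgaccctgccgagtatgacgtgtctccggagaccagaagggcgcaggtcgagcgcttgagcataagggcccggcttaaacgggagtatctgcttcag

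Ndufb4c was either at 0 or well expressed in the table, with nothing between. In the 8 distinct libraries with Ndufb4c at 0, Ndufb4 lay between 148.5 and 207 TPM (median 163 TPM). In the 12 libraries with Ndufb4c above 0, that gene lay between 117 and 155 TPM and Ndufb4 between 76.03 and 92.3 TPM (median 84.8 TPM). The Ndufb4 values of these sets of libraries did not overlap. Which libraries belonged to which set was not a matter of group, because Ndufb4c was at 0 in sedentary replicates 1 and 3 and above 0 in sedentary replicate 2. The trained 72 h group was the only one with Ndufb4c above 0 in all 3 libraries, and it had the lowest mean of Ndufb4. Its Ndufb4 difference from sedentary muscle was -0.75 ± 0.41 (log2, SE, n = 3 per group; limma adjusted p = 0.51). With the TPM of both loci added together, the same difference was 0.25 ± 0.16 (adjusted p = 0.59) and the SD within groups fell to 0.21. The sum still went with the listing of the pseudogene. It was 199.7 to 244.1 TPM in libraries with Ndufb4c above 0 and 148.5 to 207 TPM in those with Ndufb4c at 0. The positive difference of the trained 72 h group therefore cannot be told apart from this. The sign of the difference thus depended on whether the pseudogene was counted, and neither value passed the test.

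Ndufab1 showed the same behaviour in 2 libraries. The gene lies on chromosome 7 (GRCm39, 121684626 to 121701393, minus strand), and the processed pseudogene Gm4459 on the same chromosome (139239604 to 139240071, minus strand). Of the 468 bases of Gm4459, a run of 331 is identical to the 471-base coding sequence of Ndufab1. The start of that run, from coding base 138 onwards, is shown because reads from it fit both loci.

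Ndufab1 and Gm4459, from base 138 of the Ndufab1 coding sequence: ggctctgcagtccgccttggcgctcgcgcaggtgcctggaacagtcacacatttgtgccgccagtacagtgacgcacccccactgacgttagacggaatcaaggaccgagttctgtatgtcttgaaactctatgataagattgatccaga

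Ndufab1 lay between 99.4 and 137 TPM in the 18 distinct libraries in which Gm4459 was above 0 (134 to 189 TPM). In untrained 0 h replicate 2 and trained 72 h replicate 1 Gm4459 was listed at 0, and Ndufab1 stood at 306 and 240.2 TPM. The sum of both loci ranged only from 234 to 325 TPM over the 20 libraries, a 1.39-fold range against 3.08-fold for Ndufab1 alone, and its SD within groups was 0.088 against 0.38. Ndufab1 alone gave the largest log2 fold change of any member at untrained 0 h, 0.68 ± 0.30 (SE, n = 3 per group; adjusted p = 0.17). The sum of both loci gave 0.26 ± 0.074 (adjusted p = 0.041), with values of 325, 306 and 279 TPM at untrained 0 h and 246, 253 and 258 TPM in sedentary muscle. The 325 TPM is the shared library, without which the difference was 0.21 ± 0.061 (adjusted p = 0.073). Summing was chosen after these values were seen.

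**Figure D2:**
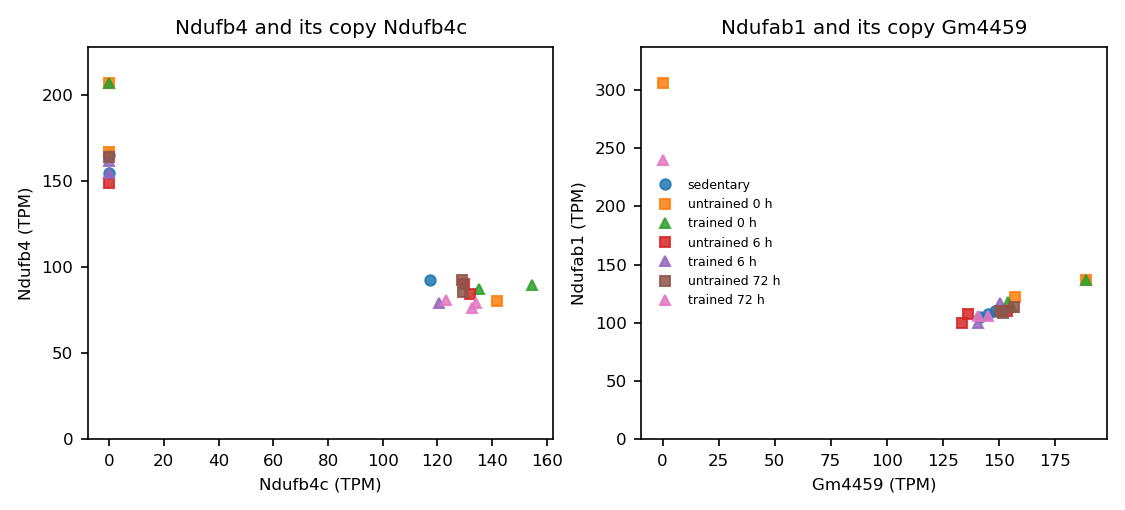
TPM of Ndufb4 against its pseudogene Ndufb4c (left) and of Ndufab1 against Gm4459 (right), 1 point per column, coloured by group. Ndufb4 is between 148.5 and 207 TPM where Ndufb4c is 0 and at most 92.3 TPM elsewhere, and the 2 libraries with Gm4459 at 0 have the highest Ndufab1 values.

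Sharing of sequence was common among the members. Of the 38 expressed genes, 23 had more than 10% of the 31-base words of their main transcript in a transcript of another annotated gene, 8 had more than 50%, and 7 had none (Ndufb10, Ndufc2, Ndufs4, Ndufs8, Ndufv1, Ndufv2 and Ndufv3). Ndufb8 shared 67.2% with Gm20538 (17.2 TPM) and Ndufa3 shared 61.9% with Tfpt (4.52 TPM). Besides Ndufb4, the closest partner was above 50 TPM on average for 3 genes, Ndufab1 with Gm4459 (138 TPM), Ndufa6 with Smdt1 (121 TPM) and Ndufs1 with Eef1b2 (134 TPM). For Ndufs1 the shared part was 7.45% of the words. Some further members had single libraries that stood apart. Ndufa3 was at 350.3 TPM in untrained 6 h replicate 2, 342 TPM in untrained 72 h replicate 1 and 312 TPM in trained 72 h replicate 2, and between 406 and 619 TPM in the rest. Ndufa10, named here after its values were seen, was at 106 TPM in untrained 6 h replicate 1 and between 120.5 and 195 TPM elsewhere.

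Immediately after the bout, most subunit genes had mean levels slightly above those of sedentary muscle, but no member passed the test with both thresholds, an adjusted p below 0.05 and a change of at least 1.5-fold. At untrained 0 h 0 of 38 members were called, against 3.59% of all 11819 tested genes, and 0 passed on the adjusted p alone, against 7.46%. At trained 0 h 0 members were called against 3.74%, and 1 passed on the adjusted p alone against 9.37%. That count was 0 without the shared library and under each of the 3 other scalings. Some left-out libraries gave more passes, none of 1.5-fold. With the shared library kept in the untrained group only, Ndufa8, Ndufb10 and Ndufa12 passed at untrained 0 h (adjusted p = 0.041, 0.042 and 0.049). With it in the trained group only, Ndufa8 also passed at trained 0 h (adjusted p = 0.038). Without sedentary replicate 3, 2 members passed at untrained and 5 at trained 0 h. The share of all genes that passed was not computed for fits with 1 library left out. These counts therefore cannot be set against a background. An unadjusted p below 0.05 was reached by 11 members in each of the 2 comparisons, all of them higher, which is 28.9% of the members against 24.2% and 27.2% of all genes. Without the shared library 5 members at untrained and 4 at trained 0 h had such a p, all of them higher, beside 17.6% and 21.9% of all genes. The log2 fold change was above 0 for 37 of 38 members at untrained 0 h and for 35 at trained 0 h, with medians of 0.15 and 0.12. The medians of all tested genes in the same comparisons were 0.10 and 0.13, with 70.6% and 76.3% of genes above 0. All modules had similar medians, from 0.13 (distal membrane arm) to 0.16 (proximal membrane arm) at untrained 0 h and from 0.12 to 0.15 at trained 0 h. These comparisons share their sedentary libraries and 1 of their 0 h libraries.

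The direction at 0 h was not independent of the scale. TPM values add up to a fixed total, of which genes of the mitochondrial genome made up 37.7% to 48.0% in a library. Under scaling to the median ratio of all genes, quantile normalization, or TPM rescaled without the mitochondrial genome and the 10 highest other genes, the median of all genes at untrained and trained 0 h moved to between -0.052 and -0.0026. The members' medians then were 0.028, -0.0052 and -0.022 at untrained 0 h, with 22, 18 and 12 of 38 genes above 0. At trained 0 h they were -0.029, -0.028 and -0.068, with 13, 12 and 6 genes above 0. Without the shared library, on the TPM scale, the medians fell to 0.063 and 0.060, with 36 and 33 of 38 genes above 0.

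A measure that no scaling factor of a library can move is the ratio within each library of the 7 complex I genes of the mitochondrial genome to the nuclear members. In sedentary muscle the summed TPM of mt-Nd1 to mt-Nd6 was 8.02 to 8.99 times that of the nuclear members. In the 5 distinct libraries taken at 0 h it was 6.10 to 7.82 times, below all sedentary libraries, and 7.41 to 7.82 times without the shared library. At 6 h it was 8.76 to 9.67 times in untrained and 9.37 to 9.86 times in trained muscle, and at 72 h 7.79 to 9.13 and 8.66 to 9.92 times. The mitochondrial sum was 56532 to 62768 TPM in the 0 h libraries, below the 64267 to 66383 TPM of sedentary muscle. All genes of the mitochondrial genome together made up 37.7% to 40.6% of TPM at 0 h and 42.2% to 46.9% in sedentary muscle. The fall was thus not limited to complex I genes. Whether the ratio differs from that to other nuclear genes was not tested. The nuclear sum was 7822 to 9269 TPM at 0 h and overlapped the 7388 to 8013 TPM of sedentary muscle. Of the 7 mitochondrial genes, mt-Nd5 and mt-Nd6, both membrane arm core subunits, fell at untrained 0 h by 0.36 ± 0.064 and 0.33 ± 0.067 on the log2 scale (adjusted p = 0.0018 and 0.0060). At trained 0 h mt-Nd5 (fell by 0.35 ± 0.064, adjusted p = 0.0021), mt-Nd6 (fell by 0.32 ± 0.067, adjusted p = 0.0061) and mt-Nd4 (fell by 0.14 ± 0.036, adjusted p = 0.021) passed. All of them also passed without the shared library (adjusted p from 0.0011 to 0.040), and none reached 1.5-fold. The library kit does not keep the strand, so RNA of mt-Nd6 and of the opposite mitochondrial strand cannot be told apart.

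**Figure D3:**
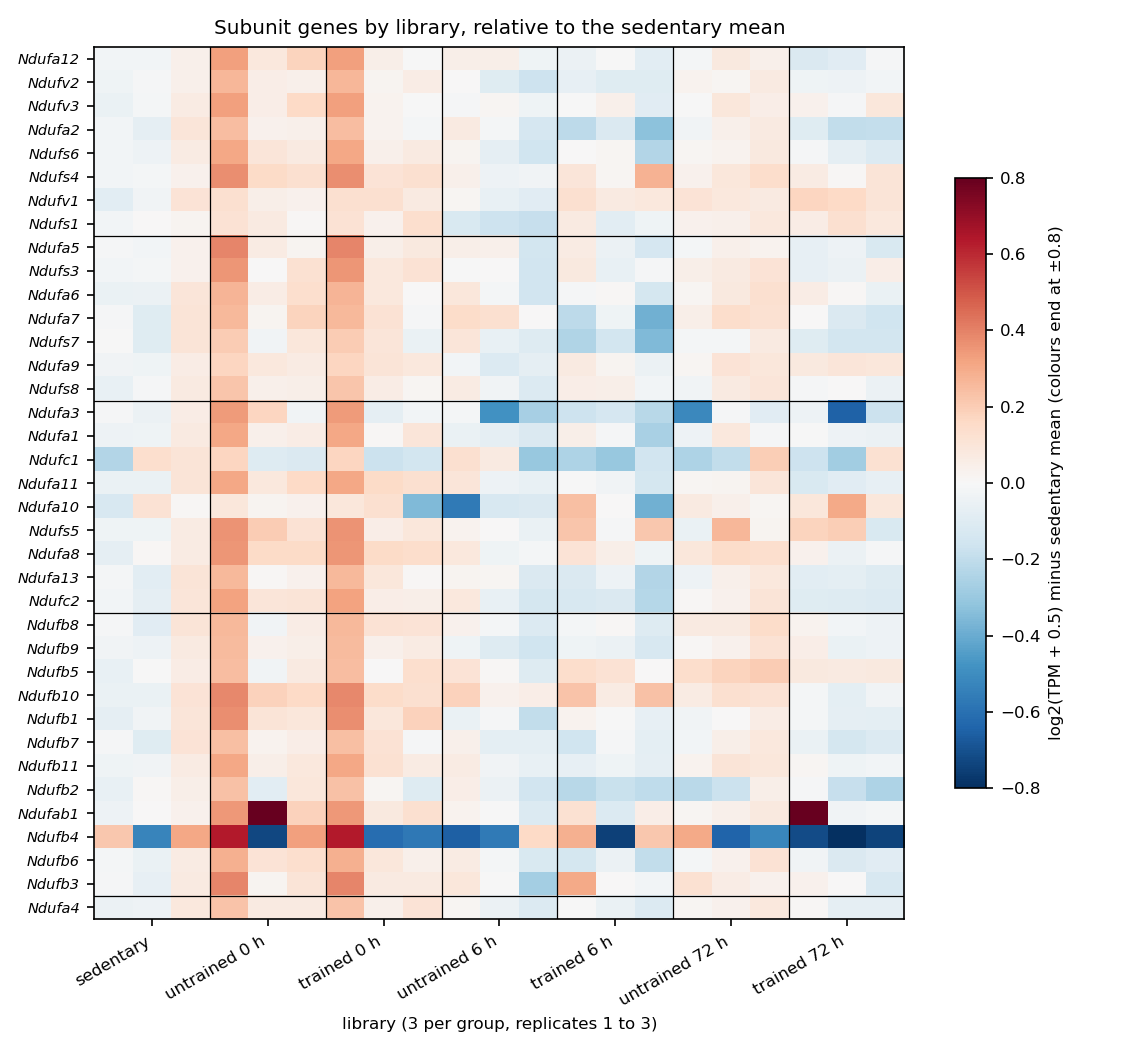
Difference of each library from the sedentary mean, on the log2(TPM + 0.5) scale, for 37 of the 38 expressed members (rows, ordered by module and by level) in the 21 columns of the 7 groups. The first column of both 0 h groups is the same library and is the reddest, Ndufb4 switches between libraries of a group, and Ndufab1 is high in untrained 0 h replicate 2 and trained 72 h replicate 1.

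At 6 h after the bout, the subunit genes lay on both sides of the sedentary values and none passed the test on the TPM scale. At untrained 6 h 0 of 38 members were called, against 4.42% of all genes, and 0 passed without the fold threshold, against 9.47%. At trained 6 h 0 members were called against 3.85%, and 0 passed without the fold threshold against 10.4%. The smallest adjusted p was 0.054 (Ndufs1) at untrained and 0.066 (Ndufs7) at trained 6 h. Unadjusted, 1 and 4 members had a p below 0.05, or 2.63% and 10.5% of the members, where 21.8% and 24.1% of all genes did. The medians of the members were -0.029 and -0.048, with 32 and 26 of 38 genes below 0. Single libraries decided this direction at untrained 6 h, where 24 of 38 genes were above 0 without untrained 6 h replicate 3 (median 0.014) and 22 without sedentary replicate 3 (median 0.010). At trained 6 h 19 of 38 were above 0 without replicate 3 (median -0.0019). The medians of all genes were 0.015 and -0.015. The intervals show how large a change could have been missed. For 34 of 38 members at untrained 6 h and 36 at trained 6 h the 95% interval of the difference lay within 1.5-fold in either direction, the exceptions being Ndufb4 and Ndufab1, and at untrained 6 h also Ndufa3 and Ndufa10.

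Ndufs1 had the tightest values of all members and was the one closest to the threshold at untrained 6 h. Its gene lies on chromosome 1 (GRCm39, 63182058 to 63216236, minus strand). It was at 108, 109 and 111 TPM in sedentary muscle, and at 101, 97.4 and 96.3 TPM at untrained 6 h, which is below all other 18 columns. The difference was -0.16 ± 0.048 (95% interval -0.26 to -0.054, adjusted p = 0.054), 10.3% lower. At trained 6 h it was at 115, 103 and 107 TPM, which overlapped the sedentary values. The trained minus untrained difference at 6 h was 0.14 ± 0.048 (95% interval 0.039 to 0.25, adjusted p = 0.12). The call depended on the scaling. Under quantile normalization and under rescaling without the mitochondrial genome and the 10 highest genes, Ndufs1 fell at untrained 6 h (-0.24 and -0.23, adjusted p = 0.0063 and 0.010) and was higher in trained than untrained muscle at 6 h (0.24 and 0.23, adjusted p = 0.012 and 0.016). Ndufb9, an accessory subunit of the distal membrane arm, also fell at untrained 6 h under quantile normalization (-0.19, adjusted p = 0.015). At untrained 6 h these 2 were the only members of 38 that passed under quantile normalization, beside 12.7% of all genes. Under rescaling only Ndufs1 passed there, beside 12.6%. On the TPM scale, Ndufs1 passed at untrained 6 h without untrained 6 h replicate 1 (-0.18, adjusted p = 0.045) and without trained 6 h replicate 1 (-0.16, adjusted p = 0.038). The share of all genes in these fits was not computed.

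At trained 6 h 4 members had an unadjusted p below 0.05, 3 of them lower and 1 higher than in sedentary muscle, and they are named here after their values were seen. Ndufs7, a core subunit of the Q module, was at 156, 166 and 144 TPM, against 184, 172 and 198 TPM in sedentary muscle, without overlap (-0.25, adjusted p = 0.066). Without the shared library, which is in neither group, its SE was smaller and Ndufs7 passed (-0.25, adjusted p = 0.043). It was 1 of 38 members to do so, beside 10.8% of all genes. Ndufa2, an accessory subunit of the N module, was at 165, 176 and 152 TPM against 188, 181 and 204 TPM (-0.22 ± 0.083, adjusted p = 0.11). Ndufa7, an accessory subunit of the Q module, was at 163, 183 and 144 TPM against 187, 176 and 201 TPM, with an overlap (-0.21, adjusted p = 0.17). Ndufb10, an accessory subunit of the distal membrane arm, was at 225, 201 and 226 TPM against 185, 185 and 207 TPM, with a slight overlap (0.18, adjusted p = 0.17). Under quantile normalization Ndufb10 rose and Ndufa2 fell (0.21 and -0.20, adjusted p = 0.020 and 0.041). No other of the 38 members passed there, where 13.7% of all genes did. Under rescaling only Ndufb10 passed, beside 13.1% of all genes, and with median-of-ratios scaling 0 members did, beside 14.0%.

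After 72 h, no subunit gene passed the test in untrained or trained muscle, at a time when hardly any gene did. At untrained 72 h 0 of 38 members were called, against 0.00846% of all genes with and without the fold threshold, which is 1 gene. At trained 72 h 0 members were called against 0.169%, and 0 passed on the adjusted p alone against 0.254%. An unadjusted p below 0.05 was found for 1 member at each of these points. At untrained 72 h it was Ndufb5 (difference 0.18, adjusted p = 0.84), and at trained 72 h Ndufv1 (difference 0.14 ± 0.052, adjusted p = 0.28). Ndufv1 was at 153, 152 and 146 TPM there, against 128, 133 and 147 TPM in sedentary muscle, an overlap of 1 library. The medians of the members were 0.046 in untrained and -0.032 in trained muscle, beside 0.036 and -0.044 for all genes. Under quantile normalization and rescaling the trained 72 h median became 0.053 in both, and under quantile normalization Ndufv1 passed (0.25, adjusted p = 0.047).

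Trained and untrained muscle were then compared at the same time after the bout, which asks whether training changed the level or the response of these genes. At 0 h 0 members were called against 0% of all genes under both rules, and no member had an unadjusted p below 0.05, while 1.21% of all genes did. The shared library stood in both groups there, which draws every difference towards 0, and the fit treated its columns as independent. Without it, 0 members and 4.47% of all genes had such a p. The group of the shared library decided the direction there. With it in the trained group only, 35 of 38 members were higher in trained muscle (median 0.055), with it in the untrained group only, 4 of 38 were (median -0.089), and with it in neither, 17 of 38 were (median -0.0068). At 6 h 0 members were called against 2.01% of all genes, and 0 passed on the adjusted p alone against 4.56%. At 72 h 0 members were called against 0.245%, and 0 passed on the adjusted p alone against 0.415%. Unadjusted, 5 members at 6 h (Ndufa2, Ndufa7 and Ndufs7 lower in trained muscle, Ndufs1 and Ndufv1 higher) and 1 at 72 h (Ndufa2, lower) had a p below 0.05. The median differences were -0.0045 at 0 h, -0.00015 at 6 h and -0.087 at 72 h, and those of all genes 0.029, -0.037 and -0.079. At 6 h and 72 h the 95% interval lay within 1.5-fold for 36 of 38 members, all but Ndufb4 and Ndufab1. The same 36 did so at 0 h, but with the shared library in both groups those intervals do not bound an effect of training. Ndufb8, the subunit most often used to detect complex I on blots, differed by -0.0073 ± 0.072 at 6 h and by -0.11 ± 0.072 at 72 h. At 0 h, with the shared library in both groups, Ndufb8 differed by 0.065 ± 0.072. Its adjusted p was 0.52 or more each time. Its 95% interval at 72 h, -0.26 to 0.044, held nothing beyond 1.5-fold.

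At 6 h the calls depended on the scale. With median-of-ratios scaling 0 members passed on the adjusted p alone (median 0.040), where 6.59% of all genes did. Under quantile normalization 6 members (Ndufa9, Ndufb10, Ndufb5, Ndufs1, Ndufs4 and Ndufv1) passed on the adjusted p alone, and under rescaling without the mitochondrial genome and the 10 highest genes 4 of them did (Ndufa9, Ndufs1, Ndufs4 and Ndufv1). All were higher in trained muscle, none by 1.5-fold, where 6.68% and 6.91% of all genes passed in either direction. The medians of the members were 0.10 and 0.088 under these scalings. On the TPM scale, Ndufa7 passed lower in trained muscle without trained 6 h replicate 2 (-0.39, adjusted p = 0.037). The share of all genes in that fit was not computed.

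**Figure D4:**
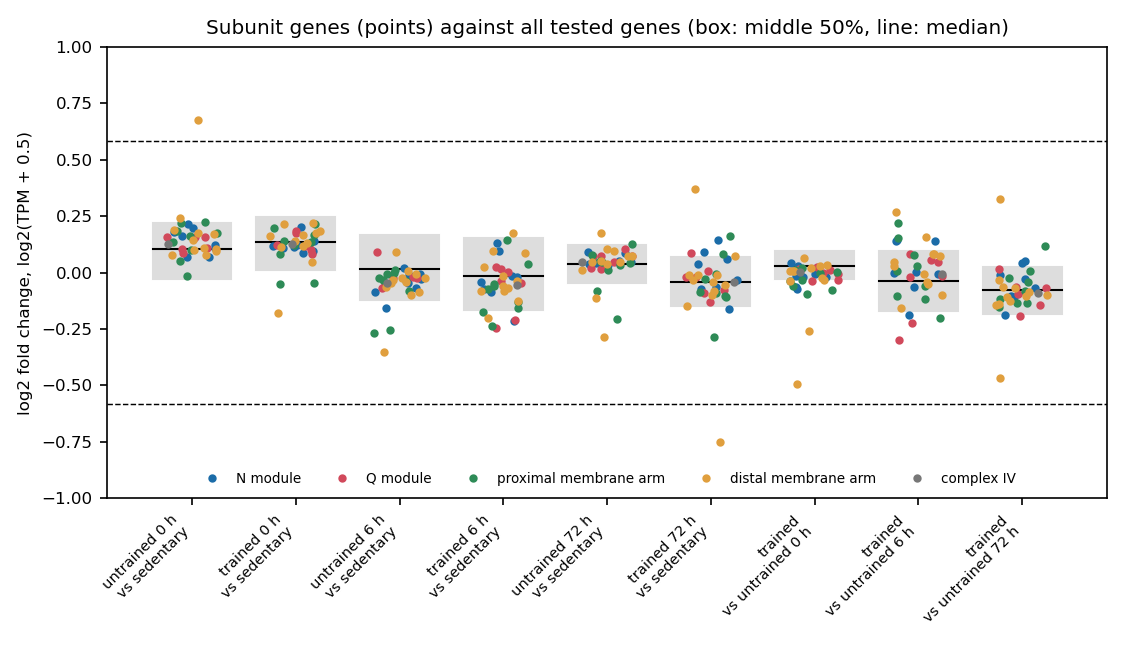
Log2 fold changes (vertical axis, log2(TPM + 0.5) scale) of 37 of the 38 members in the 9 comparisons, coloured by module. Grey boxes span the middle 50% of all 11819 tested genes with their median as a line, and dashed lines mark 1.5-fold. Nearly all members lie inside or close to the boxes, and the few points beyond the dashed lines are Ndufab1 at untrained 0 h and Ndufb4 at trained 72 h.

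A test over all 7 groups at once asked whether a subunit gene varied at all. In the moderated F test 12 of 38 members (31.6%) passed an adjusted p of 0.05, against 34.6% of all genes, a share close to the background. Ordered by module they included Ndufs1 and Ndufa2 of the N module, Ndufs7, Ndufa7 and Ndufa9 of the Q module, Ndufa8, Ndufa11 and Ndufc2 of the proximal and Ndufb1, Ndufb6 and Ndufb10 of the distal membrane arm. Ndufs1 had the smallest adjusted p (0.0079). The range of group means of these 12 genes was between 0.19 (Ndufa9) and 0.36 (Ndufa7) on the log2 scale. The highest group was a 0 h group for all 12, with the shared library in both. That was not particular to these 12, because it held for all tested members except Ndufb5, Ndufc1, Ndufa10 and Ndufv1. Without the shared library the count fell to 2, Ndufs1 and Ndufa2, or 5.26% of the members beside 26.2% of all genes. With median-of-ratios scaling, quantile normalization and rescaling it was 2, 6 and 5. These are 5.26%, 15.8% and 13.2% of the members, beside 27.3%, 27.5% and 27.2% of all genes. In these fits the members' share was thus below that of all genes.

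Assembly factors and regulators of the complex were examined in the same way. Of 19 tested assembly factors, which build complex I but are not part of it, none was called with both thresholds. On the adjusted p alone Timmdc1, a membrane arm assembly factor, rose at untrained 0 h (0.21 ± 0.055, adjusted p = 0.027), 1 of 19 beside 7.46% of all genes, and did not pass without the shared library (0.20, adjusted p = 0.074). At trained 6 h 3 of 19 rose and 1 fell, beside 10.4% of all genes. Dmac2 rose by 0.28 ± 0.053 (adjusted p = 0.0033), with 25.7, 25.6 and 26.2 TPM against 20.5, 22.2 and 20.99 TPM in sedentary muscle. Foxred1 (0.31, adjusted p = 0.018) and Ndufaf4 (0.37, adjusted p = 0.041) rose too, and Ndufaf5 fell by 0.35 ± 0.081 (adjusted p = 0.011), with 14.5, 14.9 and 14.6 TPM against 18.7, 18.7 and 19.2 TPM. Ndufaf5 modifies the core subunit Ndufs7, whose log2 fold change was the lowest of the members in this comparison but did not pass (-0.25, adjusted p = 0.066). A link between these changes was not tested. Only Dmac2 also passed between trained and untrained muscle at 6 h (0.21 ± 0.053, adjusted p = 0.035). Of the other respiratory complexes, 0 of 4 tested subunit genes of complex II, 0 of 9 of complex III and 0 of 15 of ATP synthase passed in any comparison. Of 12 tested genes of complex IV, Cox6a2, its heart and skeletal muscle isoform, fell at trained 6 h (-0.35 ± 0.095, adjusted p = 0.028).

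Some regulators of nuclear respiratory genes rose at 6 h. Of 16 tested, 2 were called at untrained 6 h, beside 4.42% of all genes, and 5 at trained 6 h, beside 3.85%, all of them higher. Without the fold threshold 4 passed at untrained 6 h, of which Tfb1m, a methyltransferase of mitochondrial ribosomal RNA, was lower (-0.28 ± 0.060, adjusted p = 0.0070). Ppargc1a, the coactivator PGC-1α that drives mitochondrial biogenesis, was at 3.04, 4.301 and 4.34 TPM in sedentary muscle, at 22.3, 33.1 and 25.9 TPM at untrained and at 48.6, 29.1 and 39.2 TPM at trained 6 h. The rises were 2.65 ± 0.20 and 3.15 ± 0.20 on the log2 scale (adjusted p = 2.8e-07 and 4.0e-07). Esrrg, the estrogen-related receptor gamma, was at 11.9, 10.9 and 9.15 TPM at trained 6 h, above the 5.01, 4.07 and 3.60 TPM at untrained 6 h (difference 1.24 ± 0.14, adjusted p = 9.2e-05) and the 3.18, 4.14 and 3.70 TPM in sedentary muscle. Ppara, a receptor of fatty acid metabolism, was likewise higher in trained than untrained muscle at 6 h (1.45 ± 0.23, adjusted p = 0.0016). Nrip1, a corepressor of oxidative metabolism genes, rose at untrained and trained 6 h (1.03 ± 0.22 and 0.73 ± 0.22, adjusted p = 0.0056 and 0.041). At 0 h Pprc1, a coactivator related to PGC-1α, rose in untrained and trained muscle (0.81 and 0.78, adjusted p = 0.010 and 0.013), Nrip1 rose in trained muscle (0.79, adjusted p = 0.031), and Esrrg fell in untrained muscle (-0.59, adjusted p = 0.018). These also passed on the adjusted p without the shared library (0.035 for Esrrg, where the change was -0.54 and under 1.5-fold). At 72 h 0 of the 16 passed. The plot of single genes sets these levels beside those of the subunits.

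**Figure D5:**
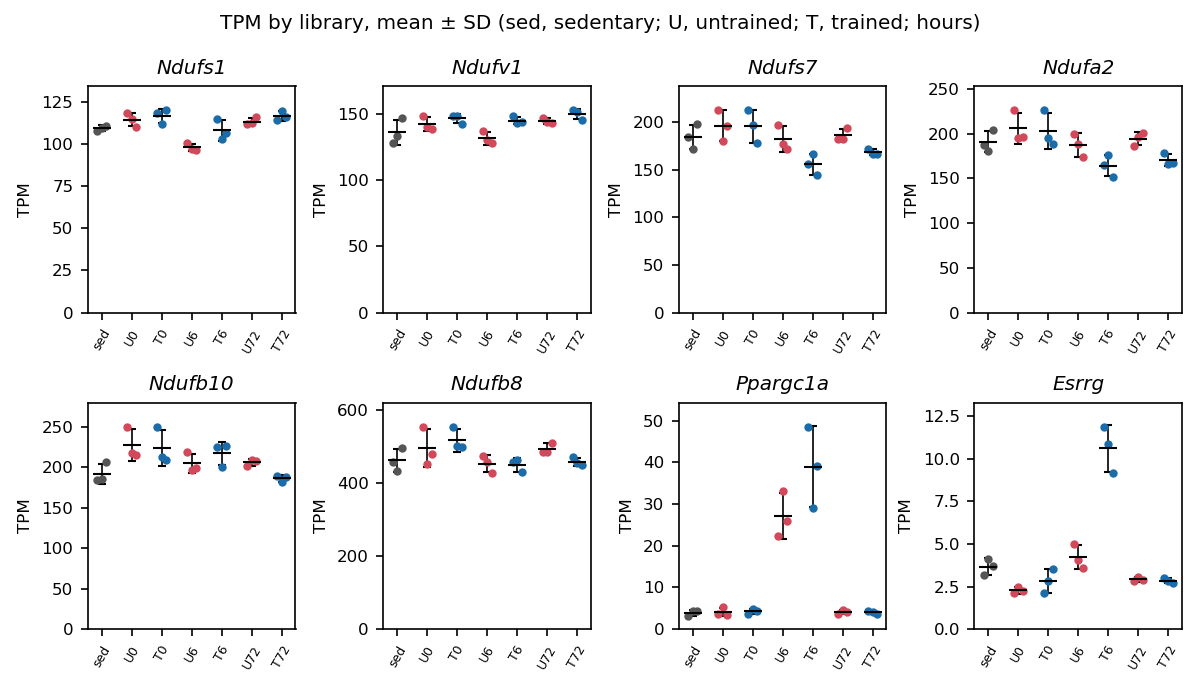
TPM of 6 complex I subunit genes and of the regulators Ppargc1a and Esrrg in each library (points), with mean ± SD of the 3 libraries of a group (black). Axes start at 0. The subunit genes stay within a narrow band, Ndufs1 is lowest at untrained 6 h, Ppargc1a is high in both 6 h groups, and Esrrg is highest at trained 6 h.

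The promoters of the members were searched for motifs of such regulators, as a description. RefSeq windows of 300 bases around the start (GRCm38.p6, which is an older build than that of the files) were found for 34 of the members, 36 windows in all, and both strands were read. The NRF1 motif GCGCANGCG stood in 9 of the 36 windows (25%) and in 6.25% of all 32851 windows. The YY1 motif AAGATGGCG stood in 5 windows (13.9%), against 1.40% of all. The estrogen-related receptor motif AAGGTCA stood in 3 windows (8.33% against 4.72%) and the GABP motif CCGGAAG in 4 (11.1% against 8.86%). The windows with the NRF1 motif belonged to 8 genes, Ndufa5, Ndufa6, Ndufa8, Ndufa11, Ndufb4, Ndufb10, Ndufs5 and Ndufs6. For Ndufa5 the same site was counted in overlapping windows. The shares over all windows were not limited to genes expressed in muscle or matched for base content. All sites of the YY1 motif are shown because their position is alike, and 3 of the NRF1 motif as examples, with the motif in capitals. The YY1 motif began 22 to 35 bases after the start and on the strand of the gene in all 5.

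Ndufa9, YY1, chr6:126849096-126849125, minus strand: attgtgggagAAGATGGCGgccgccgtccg
Ndufc1, YY1, chr3:51408914-51408943, minus strand: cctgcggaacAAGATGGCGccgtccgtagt
Ndufs4, YY1, chr13:114388045-114388074, minus strand: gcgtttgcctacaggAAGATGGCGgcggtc
Ndufs6, YY1, chr13:73328433-73328462, minus strand: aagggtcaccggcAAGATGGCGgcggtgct
Ndufs7, YY1, chr10:80249463-80249492, plus strand: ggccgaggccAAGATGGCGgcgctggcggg
Ndufb4, NRF1, chr16:37654371-37654400, minus strand: cctcatatccGCGCAGGCGcagatgtgcgc
Ndufb10, NRF1, chr17:24724406-24724435, minus strand: tcacctttctGCGCAGGCGtagaggtcccg
Ndufs5, NRF1, chr4:123718265-123718294, minus strand: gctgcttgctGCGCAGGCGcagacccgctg

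Of the 5 genes with the YY1 motif, Ndufs7 and Ndufa9 were among the 12 that varied over the 7 groups and Ndufc1, Ndufs4 and Ndufs6 were not. Ndufs5, Ndufb2 and Ndufb4 carried the estrogen-related receptor motif. On the TPM scale 0 of 38 members passed at 6 h, with or without this motif, so these comparisons say nothing about the motif.

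The tissue label was checked against markers. The 8 fibre markers summed to 55512 to 78639 TPM in every library, and the neutrophil list stayed at or below 1.7 TPM with none of its genes tested. Levels of markers of other fibre and cell types differed between groups. Mb, 1 of the 8 fibre markers, was higher in trained than untrained muscle at 6 h (0.73, adjusted p = 0.013). There 2 of the 8 were above 0. Myh1, 1 of 8 fast fibre markers, rose at trained 0 h (0.64, adjusted p = 0.013), where 7 of 8 were above 0. It was at 1010 TPM in the shared library and at 1374 and 1485 TPM in the others, against 805 to 828 TPM in sedentary muscle. The 7 slow fibre markers summed to 535 to 1005 TPM in sedentary muscle, 267 to 394 TPM at untrained 0 h, 301 to 697 TPM at trained 0 h, 246 to 371 TPM at untrained 6 h and 380 to 1130 TPM at trained 6 h. At 72 h they summed to 354 to 505 TPM in untrained and 275 to 421 TPM in trained muscle. Myl3 and Myl2, light chains of slow myosin, fell at untrained 6 h (-1.32 and -1.28, adjusted p = 0.0061 and 0.047). Myl3 also fell at untrained 0 h (-1.04, adjusted p = 0.033), but did not pass without the shared library (-1.02, adjusted p = 0.081). At trained 72 h its difference was -1.35 and did not pass (adjusted p = 0.051). Myl2 was higher in trained than untrained muscle at 6 h (1.41, adjusted p = 0.048). Of 7 tested macrophage markers, 2 passed at untrained 6 h, Cd68 and Csf1r. Cd68 rose at untrained 6 h and 72 h (1.62 and 1.53, adjusted p = 6.4e-05 and 0.012), and the 8 macrophage markers summed to 39.5 to 43.4 TPM in sedentary and 35.2 to 74.2 TPM in untrained 6 h muscle. Kdr, 1 of 6 endothelial markers, fell at untrained and trained 0 h (-0.66 and -0.59, adjusted p = 0.021 and 0.033). In each case 1 of the 6 was above 0. Outside the shared library Kdr was at 3.65 to 5.41 TPM at 0 h, against 5.97 to 7.67 TPM in sedentary muscle. Of 6 fibro-adipogenic markers, Col3a1 and Col1a1 fell at trained 6 h (-1.35 and -0.91, adjusted p = 0.026 and 0.048), with 1 of 6 above 0. The part of all these markers in the values of the complex I genes was not tested. In bulk tissue, fewer fibres of a type and less RNA per fibre cannot be told apart.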

How the data were processed

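RNA from quadriceps was sequenced by the study from TruSeq v2 libraries. Per the labels, the authors used STAR 2.7.9 and Salmon 1.5.0 on GRCm39 and deposited TPM values per gene symbol for 21 columns; 0 columns were left unassigned. Depth is therefore unknown. The 39 members and all gene lists were chosen with earlier results of these data known. Gene types, positions and transcripts came from GENCODE vM39 (GRCm39), promoters from RefSeq.

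Values were transformed to log2(TPM + 0.5), so folds of low genes are understated, and the 11819 genes whose mean reached 1 TPM were tested. limma 3.58.1 in R 4.3.3 fitted 7 group means with a variance trend. The p-values were adjusted (Benjamini-Hochberg) over all tested genes, two-sided, and calls needed an adjusted p under 0.05 together with a log2 difference of 0.585 or more in size. The fit was tested on simulated data. Replicate numbers did not pair the libraries. Scaling, filter, pseudocount, samples, block and left-out libraries were varied. Genes named are members passing a test, the 5 highest and lowest, the core subunits, Ndufb8, those with the 3 largest and smallest ranges, and up to 4 called genes per other list. Pprc1, Tfb1m and the mitochondrial genes, assembly factors and complex IV gene that passed only on the adjusted p were named outside this rule. Others are marked as named after their values were seen. Results of 1 member are not reported here.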

Additional observations from a re-analysis of the deposited data

How the results depend on the processing

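No member was called with both thresholds in any of the 9 comparisons under any alternative. Without the fold threshold the count at trained 0 h was 1. It was 0 under the 3 scalings, without the shared library and in a fit of only the groups compared. Without sedentary replicate 3 it was 5, a fit for which the share of all genes was not computed. Under quantile normalization 2 members passed lower at untrained 6 h, 1 higher and 1 lower at trained 6 h, and 1 higher at trained 72 h. For trained against untrained 6 h 6 passed higher there. The shares of all genes were 12.7%, 13.7%, 0.694% and 6.68%. Medians of the members moved with the scaling by more than the replicate spread of 0.080 in 6 comparisons, and by less at trained 6 h, at untrained 72 h and for trained against untrained 0 h. At untrained 0 h the median of 0.15 became 0.0283 with median-of-ratios scaling, -0.0052 with quantile normalization and -0.0221 when rescaled without the mitochondrial genome and the 10 highest genes, and 0.0630 without the shared library, with 0.0630 as the lowest and 0.187 as the highest value when 1 library was left out. At trained 0 h the 3 scalings gave -0.0289, -0.0277 and -0.0675. Quantile normalization gave -0.115 at untrained 6 h. At trained 72 h quantile normalization and rescaling gave 0.0529 and 0.0526, and for trained against untrained muscle 0.102 and 0.0881 at 6 h. At 72 h the 3 scalings gave 0.0041, 0.0349 and 0.0280. For trained against untrained 0 h, leaving out 1 library gave -0.0887 to 0.0550, which are the values with the shared library kept in the untrained or in the trained group only.

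The count of 12 members that differ among groups was 4 with no filter on low values, beside 11.4% of all genes. It was 2, 6 and 5 with the 3 scalings, beside 27.3%, 27.5% and 27.2%, and 2 without the shared library, beside 26.2%. For fits with 1 library left out the share of all genes was not computed. Leaving out 1 library gave 3 to 14. It was 3 without trained 6 h replicate 3 or trained 72 h replicate 2 or 3, 5 without untrained 0 h replicate 1, 6 without untrained 72 h replicate 2 or trained 6 h replicate 1, and 7 without sedentary replicate 1, untrained 6 h replicate 3 or trained 72 h replicate 1. The counts with libraries left out rest on fewer libraries, and the count with no filter rests on more genes. The counts with the 3 scalings rest on all libraries and on no more genes than the count of 12. The cause of these differences was not tested further. The count was 13 with the pseudogenes added to Ndufb4 and Ndufab1, beside 34.6% of all genes, an alternative chosen after seeing the data. Libraries with the same replicate number did not deviate together (correlations from -0.12 to 0.13, median 0.018). With the replicate number as a block, the count was 10, beside 32.5% of all genes, and 0 members were called in each comparison.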
